A study of Mus musculus with 10 samples.

Results

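The genes described here are those for the proteins of the cytosolic ribosome, read in neuronal nuclei of the adult mouse brain. A gene was a member if its symbol in GENCODE M21 (GRCm38) was Rpl or Rps followed by a number and optional letters, or *Rplp0*, *Rplp1*, *Rplp2* or *Rpsa*, and its biotype was protein coding. Pseudogenes named with -ps, the Rps6k kinases and *Rps27a* were left out. The rule used no measured value. It found 81 members among the 54532 genes of the count tables, 31 for the small (40S) subunit and 50 for the large (60S) subunit. Of these, 79 had enough reads to be tested among 18573 genes. The 2 others were *Rpl10l*, which was at 0 in every library, and *Rpl39l*, with 2 counts in all.

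The study asked what loss of MPP8, a reader of H3K9me3 and part of the HUSH silencing complex, or of MORC2A, an ATPase recruited by HUSH, does to transcription in neurons. Polyadenylated RNA was sequenced from nuclei of adult C57BL/6J brains that were sorted for NeuN, a nuclear protein of most mature neurons. Of 10 libraries, 5 were Cre-negative controls, 3 *Mphosph8* Δ/Δn (Mphosph8fl/fl Nestin-Cre+) and 2 *Morc2a* Δ/Δn (Morc2afl/fl Nestin-Cre+). Controls 1 to 3 were Mphosph8fl/fl Nestin-Cre- and controls 4 and 5 Morc2afl/fl Nestin-Cre-, so all 10 libraries carried a floxed exon 4 of 1 of the 2 genes and no library had Cre without a floxed allele. Nestin-Cre acts in neural progenitors and therefore also in the glia that descend from them, while the NeuN gate restricts what was sequenced. The labels do not say whether 1 library is 1 brain, and p-values below measure the spread between these libraries.

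The libraries held 6686038 to 10764555 counts assigned to genes. The member counts were 0.304% to 0.406% of them. Normalized values are CPM (counts divided by the library size on a fixed common scale) on TMM-scaled library sizes, and 3 counts corresponded to 0.281 to 0.446 CPM. *Rbfox3*, the gene for NeuN, lay between 150.0 and 304 CPM, and the summed CPM of 6 neuron markers, led by *Snap25*, between 3331 and 4872. The microglia markers summed to 31.7 to 59.4 CPM, with *C1qa*, *Cx3cr1* and *Tmem119* at 0 in at least 1 library. The oligodendrocyte markers, led by *Mbp*, summed to 545 to 967 CPM and the astrocyte markers, led by *Aldoc*, to 312 to 579 CPM, so RNA of glial genes was present in all libraries.

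The counts of the floxed genes over all their exons did not separate the knockouts from the controls in the direction of a loss. *Mphosph8* was at 32.2, 33.5, 37.2, 49.0 and 41.6 CPM in controls 1 to 5, and at 37.2, 36.0 and 18.8 CPM in the *Mphosph8* Δ/Δn libraries (log2 fold change -0.34, adjusted p = 0.967). With 1 library left out this value ran from -0.49 to -0.08. *Morc2a* was at 163, 139, 138, 122 and 140.4 CPM in the controls and higher, at 215 and 223 CPM, in the *Morc2a* Δ/Δn libraries (log2 fold change 0.64 ± 0.14 SE, adjusted p = 0.0916). Loss of exon 4 shifts the reading frame, which exposes the mRNA to nonsense-mediated decay, but neither gene passed the test with edgeR, and the *Morc2a* CPM was above every control in both libraries. The higher *Morc2a* count had an adjusted p of 0.0024 with DESeq2, 0.0102 with no filter on low counts and 0.0486 with at least 10 counts in every library, under a 2-fold change in each. For whole brains the paper reports loss of both genes by quantitative RT-PCR and by immunoblot. It also plots quantitative RT-PCR of both genes in sorted NeuN+ nuclei of controls and both knockouts, without giving the values in its text. A count over the whole gene does not show exon 4 itself, and the deletion was not examined here. *Mphosph8* Δ/Δn and *Morc2a* Δ/Δn therefore stand for the libraries with these labels.

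A ribosome joins 1 small and 1 large subunit. The small subunit decodes the mRNA and the large subunit forms the peptide bond. In vertebrates, ribosomal protein mRNAs start with a cytidine and a run of pyrimidines, the 5′ terminal oligopyrimidine (TOP) motif, through which mTOR and LARP1 set their translation. Many of these short, intron-containing genes have processed pseudogenes, so short reads can match more than 1 place in the genome. Most mature ribosomal protein mRNA is cytoplasmic, and the values here are those of nuclei.

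The bases around transcription starts in RefSeq (GRCm38.p6) are shown for members whose counts are followed through the comparisons, because a pyrimidine tract near the start is a sequence feature that many ribosomal protein genes hold. Each line gives 10 bases before and 20 from the annotated start, on the transcribed strand. Capitals mark a match to the motif CTTTCC, to its variant CTTCCT, to the motif CTCTTT or to its variant CTTTTC, and matches can overlap. The places are chr7:99483690-99483719 (minus strand) for *Rps3*, chr5:115559457-115559486 (plus) for *Rplp0*, chr9:64173377-64173406 (plus) for *Rpl4*, chr14:18270967-18270996 (minus) for *Rpl15*, chr7:4792955-4792984 (plus) for *Rpl28*, chr7:3704031-3704060 (plus) for *Rps9*, chr3:90213629-90213658 (minus) for *Rps27* and chr9:114982720-114982749 (minus) for *Rps27rt*.
Rps3: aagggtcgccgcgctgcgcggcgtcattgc
Rplp0: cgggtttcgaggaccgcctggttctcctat
Rpl4: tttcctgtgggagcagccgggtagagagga
Rpl15: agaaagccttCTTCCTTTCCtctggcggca
Rpl28: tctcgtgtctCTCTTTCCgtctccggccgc
Rps9: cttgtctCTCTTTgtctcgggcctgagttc
Rps27: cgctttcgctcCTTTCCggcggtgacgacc
Rps27rt: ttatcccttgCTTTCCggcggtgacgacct

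In these windows *Rpl15*, *Rpl28*, *Rps9*, *Rps27* and *Rps27rt* held a match and *Rps3*, *Rplp0* and *Rpl4* held none. Between 50 bases before and 50 after the start, 67.6% of the 74 starts listed for 62 members held at least 1 of the 4 motifs on the transcribed strand, against 17.1% of all 32851 starts. CTTTCC was found at 32.4% of the member starts and at 4.69% of all starts, CTTCCT at 28.4% and 7.26%, CTCTTT at 29.7% and 3.99%, and CTTTTC at 13.5% and 3.69%. On the other strand the share with any of the 4 was 17.2% for all starts, and 8 of the 74 member starts held one. For 19 members the table used had no start.

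Levels per kilobase of exon differed widely between members although the ribosome holds its proteins in nearly equal numbers. The mean level over the 10 libraries ran from 0.368 to 264 CPM per kilobase, with a median of 13.9. The lower end is *Rpl3l* alone, and the next lowest member was at 1.14. Among the highest were *Rplp1*, a protein of the stalk that recruits translation factors, at 264 ± 62.4 (SD, n = 10), *Rps15* at 144 ± 25.9, *Rpl8* at 139 ± 27.2, *Rpl41*, the smallest protein of the ribosome, at 113 ± 9.84 and *Rpl4* at 106 ± 14. The intervals of 1 SD between libraries of *Rps15*, *Rpl8*, *Rpl41* and *Rpl4* all overlapped, and the order of their means was not tested. On the CPM scale the 10 most counted members made up 43.1% of the members' sum.

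Lowest per kilobase among the tested members were *Rpl3l* at 0.368 ± 0.358, *Rpl23a* at 1.14, *Rps27rt* at 2.34 ± 1.71, *Rpl24* at 2.35, *Rpsa* at 2.73 ± 0.418 and *Rps10* at 3.92. Other genes share 62.3% of the exonic bases of *Rpl23a*, 47.0% of those of *Rpl24* and 28.7% of those of *Rps10*, where a read without strand cannot be assigned to 1 gene. Its part in these levels was not tested. When the longest transcript gave the length, the same 6 members were highest and 5 of the 6 lowest were the same. With the principal transcript, a choice made after seeing the data, 5 of each 6 were the same.

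**Figure D1:**
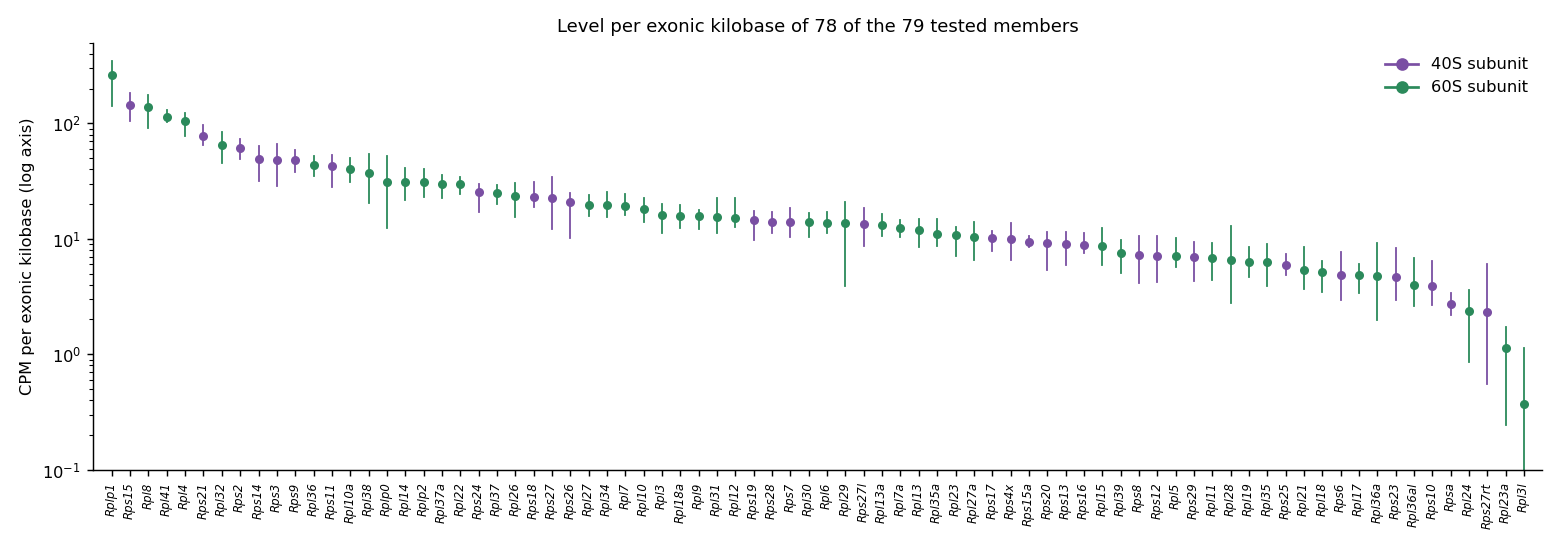
Mean level of 78 of the 79 tested ribosomal protein genes in CPM per kilobase of exon (log axis), ranked, with points for the mean of 10 libraries and lines from the lowest to the highest library. Levels run from 264 for *Rplp1* to 0.368 for *Rpl3l*, whose line reaches 0 and stops at the axis.

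Members with a paralog allow a check on which copy neurons use. *Rpl3* was at 16.2 CPM per kilobase and its striated-muscle paralog *Rpl3l* at 0.368, with 0 counts in the first library of each knockout. *Rpl10* was at 18.1 and the testis paralog *Rpl10l* at 0, and *Rpl39* was at 7.46 and *Rpl39l* at 0.0238. Other pairs were closer in level. *Rpl36a* was at 4.78 and *Rpl36al* at 4.01 CPM per kilobase, *Rps27* at 22.7 and *Rps27l* at 13.4, and *Rpl22* at 29.6 and *Rpl22l1*, which the naming rule leaves out, at 26.1. *Rpl7* was at 19.0 and *Rpl7l1*, also outside the rule, at 5.67. *Rps4x* was at 10.0, and its paralog *Rps4l* is not annotated as protein coding. *Rps27* and the retrogene *Rps27rt* can hardly be told apart by 50-base reads, since 98.6% of the windows of *Rps27* are also in *Rps27rt*. *Rps27* has 4 exons and *Rps27rt* has 1, and their transcripts of 345 and 374 bases aligned over 341 bases with 0 differences.

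How far a read can be placed differed between members. The share of 50-base windows of a transcript found nowhere else in the annotated transcripts had a median of 50.7% over the 81 members, from 1.35% for *Rps27* to 100% for *Rpl3l* and *Rpl39l*. It was 97% for *Rps3*, 93.5% for *Rpl8* and 83.5% for *Rpl4*, but 11.9% for *Rpl10a*, 13.3% for *Rps18* and 6.16% for *Rpl5*. At least 1 window was shared with a pseudogene in 78 members. The deposited counts of 300 ribosomal protein pseudogenes summed to 65.5 to 102 CPM, 1.63% to 2.58% of the members and pseudogenes together.

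The members were high as a group in some libraries and low in others. Their summed CPM was 3361, 4099, 3308, 3968 and 3946 in controls 1 to 5, 3412, 3701 and 3721 in *Mphosph8* Δ/Δn 1 to 3, and 3607 and 3059 in *Morc2a* Δ/Δn 1 and 2. Control 2 was the highest and *Morc2a* Δ/Δn 2 the lowest, and 5 of the 10 libraries lay between 3308 and 3701. Of the 79 tested members, 60 were above their own mean over the libraries in control 2, 59 in control 5 and 56 in control 4, but only 22 in control 1, 21 in control 3 and 24 in *Mphosph8* Δ/Δn 1. Over all genes tested that share lay between 49.9% and 53.7% in every library. *Morc2a* Δ/Δn 2 was the lowest library for 28 members although *Morc2a* Δ/Δn 1 had 50 members above their mean. The ratio of the 60S to the 40S sum ran from 1.22 to 1.39 over the libraries. It was 1.30 ± 0.0713 (SD, n = 5) in controls, 1.33 ± 0.0446 (n = 3) for *Mphosph8* Δ/Δn and 1.30 ± 0.0892 (n = 2) for *Morc2a* Δ/Δn.

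**Figure D2:**
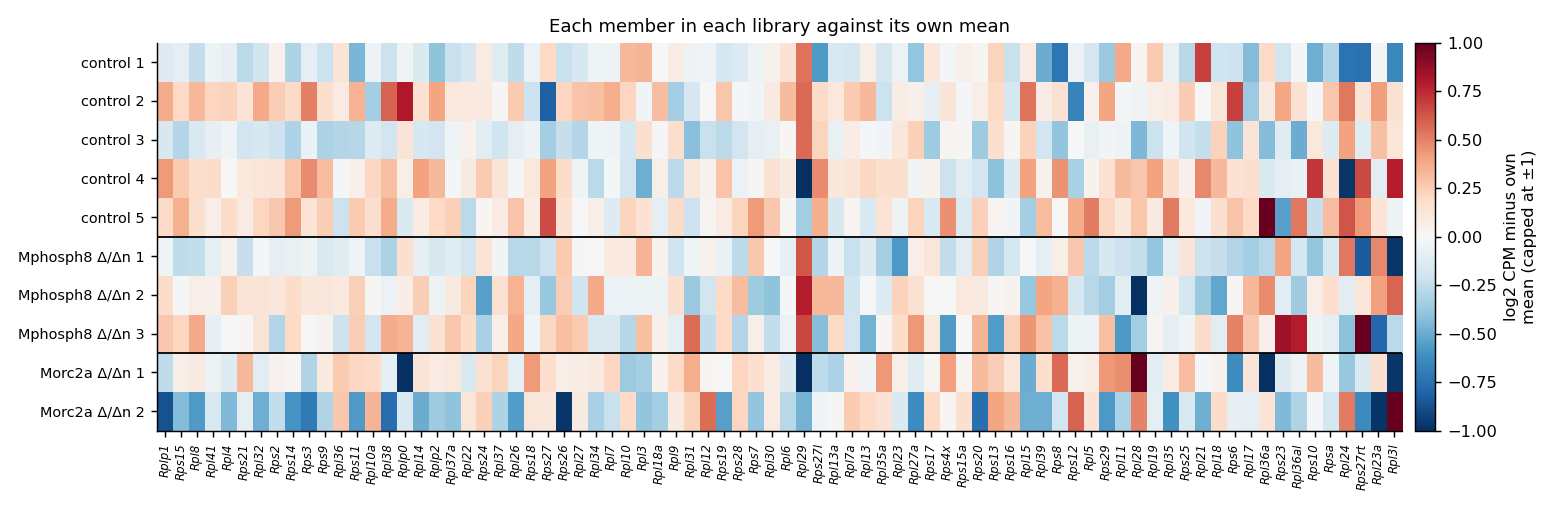
Heat map of the log2 CPM of 78 of the 79 tested members minus the own mean of each over the 10 libraries, capped at 1 in either direction, with libraries as rows and members ordered by level. In control 2 most members (60 of 79) are above their mean, and in control 3 most are below (21 above).

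Other genes moved with these sums, and their part in the differences below was not tested. The summed CPM of 86 nuclear genes of oxidative phosphorylation was 9422, 11708, 9563, 11544 and 11576 in the controls, 10162, 10797 and 10819 for *Mphosph8* Δ/Δn, and it was 9634 and 7936 for *Morc2a* Δ/Δn. Over the 10 libraries it followed the members' sum with r = 0.954 and rho = 0.964. RNA of the mitochondrial genome, which nuclei do not contain and whose reads the authors had filtered out before counting, summed to 116, 178, 107, 175 and 235 CPM in controls, 145, 185 and 204 CPM for *Mphosph8* Δ/Δn, and 178 and 91.9 CPM for *Morc2a* Δ/Δn (r = 0.834, rho = 0.709). These libraries share their normalization, so the coefficients describe 10 points and are not independent evidence. The microglia marker sum had r = 0.810, the mitochondrial ribosomal proteins r = 0.738 and the cytoskeleton and calmodulin genes r = 0.727, while 10 nuclear-retained RNAs had r = -0.724 and the total count r = -0.124.

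**Figure D3:**
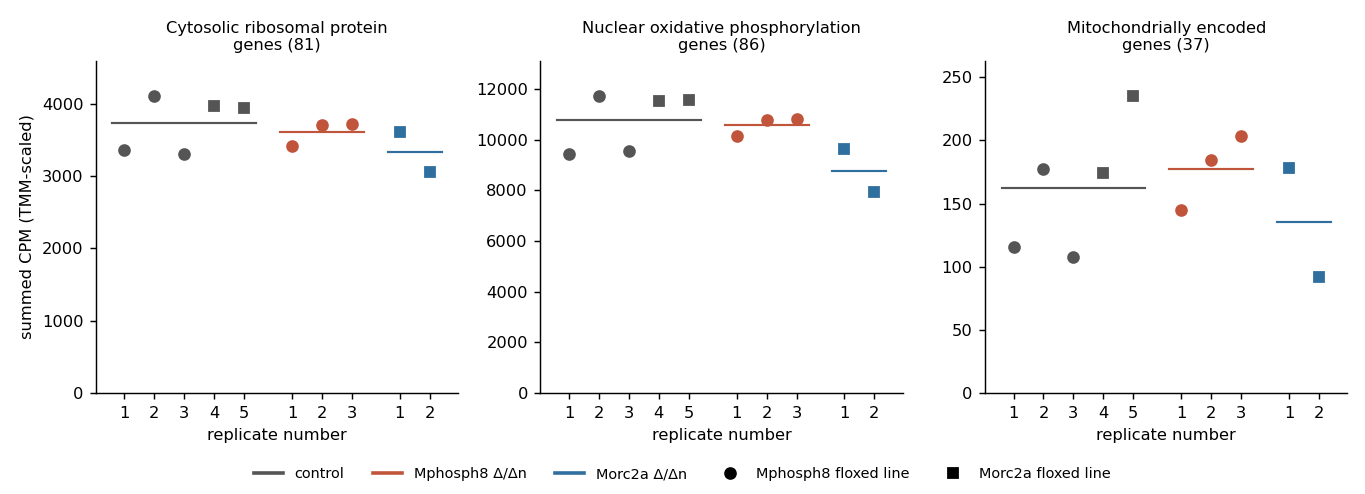
Summed CPM of the 81 ribosomal protein genes, of 86 oxidative phosphorylation genes and of 37 mitochondrially encoded RNAs in each library, with bars for group means, circles for the Mphosph8fl/fl line and squares for the Morc2afl/fl line. *Morc2a* Δ/Δn 2 is the lowest library in all 3 panels, at 3059, 7936 and 91.9 CPM.

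Of 14468 other genes considered, those whose log2 CPM followed the members' mean most closely over the 10 libraries were *Ndufa13* of respiratory complex I (r = 0.938), *Dpm3* of dolichol-phosphate mannose synthase (r = 0.916), the proteasome subunit gene *Psmb3* (r = 0.910), the mitochondrially encoded *mt-Nd1* (r = 0.909) and *Hint1* (r = 0.899).

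In *Mphosph8* Δ/Δn nuclei no ribosomal protein gene passed the test. The members' summed CPM was 3611 ± 173 (SD, n = 3) against 3736 ± 372 (n = 5) in controls, a log2 ratio of -0.05. Libraries of 1 group differed with an SD of 0.133, and with 1 library left out the ratio ran from -0.09 to -0.01. With edgeR's quasi-likelihood test 0 of 79 members passed an adjusted p of 0.05 and a 2-fold change, against 0.0969% of all genes tested (18 genes). DESeq2 and limma-voom also called 0, and at an unadjusted p of 0.05 there were 0 higher (2.58% of all genes) and 0 lower (3.09%). The median log2 fold change was -0.04, with 28 of 79 members above 0, beside -0.01 and 48.7% above 0 for all genes. That direction turned under other settings, to 0.02 with 43 members above 0 against the controls of the same floxed line, 0.02 with 44 under the replicate block, 0.02 with 40 without control 2 and 0.01 with 40 without *Mphosph8* Δ/Δn 1. The log2 fold changes ran from -0.57 to 0.56. For 69 members the 95% interval lay within a 2-fold change in either direction.

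The smallest p among the members belonged to *Rps24*, a small-subunit protein mutated in Diamond-Blackfan anemia. It was at 165, 167, 144, 187 and 158 CPM in controls and at 172, 107 and 125 CPM in *Mphosph8* Δ/Δn nuclei (log2 fold change -0.29 ± 0.15 SE, adjusted p = 0.895). *Mphosph8* Δ/Δn 1 lay within the controls and the other 2 libraries lay below them. *Rpl11*, which with *Rpl5* and 5S RNA binds Mdm2 when ribosome assembly fails, was at 23.3, 17.7, 17.1, 22.3 and 19.3 CPM in controls and at 15.3, 16.4 and 11.8 CPM in *Mphosph8* Δ/Δn nuclei. All 3 knockout libraries were below every control, but the difference did not pass the test (log2 fold change -0.46, adjusted p = 0.919). *Rpl5* itself was at 29.2 ± 5.97 CPM in controls and 23.9 ± 2.20 in *Mphosph8* Δ/Δn nuclei (adjusted p = 0.967).

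*Rpl18* (log2 fold change -0.43, adjusted p = 0.900) and *Rpl28* (-0.57, adjusted p = 0.912) had the next smallest p-values among members with lower values. On the higher side the smallest were those of *Rpl29* (0.56, adjusted p = 0.967), *Rps23*, a protein of the decoding center (0.55, adjusted p = 0.967), *Rps20* (0.26) and *Rps26* (0.24). The value of *Rpl29* rests on pooling the controls, since it lay at 20.9 to 23.5 CPM for *Mphosph8* Δ/Δn, beside 19.8 to 20.1 CPM in controls of that line, and at 4.35 and 10.4 CPM in the Morc2afl/fl controls. The knockout and control libraries did not overlap for 2 members with higher values, *Rpl29* and *Rps26* (2.31% of all genes), and for 3 with lower values, *Rpl11*, *Rpl6* and *Rpl7a* (2.26% of all genes).

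In the libraries labelled *Morc2a* Δ/Δn, in which *Morc2a* counts were not lower, no member passed the test either, and the shares of members that stood apart were near those of all genes. The summed CPM was 3333 ± 387 (SD, n = 2) against 3736 ± 372 (n = 5), a log2 ratio of -0.16. With 1 library left out this ratio ran from -0.29 to -0.05. With edgeR 0 of 79 members were called, against 0.0592% of all genes (11 genes), and limma-voom and DESeq2 called 0 with a 2-fold change. At an unadjusted p of 0.05 there was 1 member higher (4.32% of all genes) and there were 7 lower, 8.86% of the members beside 6.4% of all genes. The 7 became 3 without control 2, 4 without *Morc2a* Δ/Δn 2 and 11 without *Morc2a* Δ/Δn 1. The median log2 fold change was -0.12 with 28 of 79 above 0, beside -0.01 and 48.7% for all genes. It was -0.09 for the 40S and -0.13 for the 60S members. Without *Morc2a* Δ/Δn 1 the median was -0.25, beside -0.05 for all genes. Without *Morc2a* Δ/Δn 2 it was -0.02, which was above the -0.07 of all genes.

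*Rps3*, which lines the mRNA entry channel of the small subunit and also acts in DNA repair, had the smallest p. It was at 196, 296, 199, 290.0 and 230.2 CPM in controls, at 202, 226 and 210.2 CPM in *Mphosph8* Δ/Δn nuclei, and at 169.6 and 128 CPM in *Morc2a* Δ/Δn nuclei. Both *Morc2a* Δ/Δn libraries were below all 8 others. The log2 fold change against controls was -0.71 ± 0.18 SE (95% interval -1.09 to -0.32, adjusted p = 0.156). DESeq2 gave an adjusted p of 0.00869 and edgeR with no filter on low counts 0.00659, so this gene passed an adjusted p of 0.05 under these alternatives, but its change was under 2-fold.

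The stalk proteins form the arm of the large subunit that recruits elongation factors. *Rplp1* was at 117, 166, 115, 173 and 146 CPM in controls and at 107 and 69.9 CPM in *Morc2a* Δ/Δn nuclei. Both knockout libraries were below every control (log2 fold change -0.69 ± 0.20 SE, adjusted p = 0.213, DESeq2 adjusted p = 0.0273). The value rested in good part on *Morc2a* Δ/Δn 2, since it was -0.42 without that library and -1.03 without *Morc2a* Δ/Δn 1. *Rplp0* was at 48.0, 86.1, 54.0, 51.6 and 44.6 CPM in controls and at 20.8 and 44.2 CPM in *Morc2a* Δ/Δn nuclei. Here *Morc2a* Δ/Δn 1 was the low library and *Morc2a* Δ/Δn 2 lay close to the lowest control (log2 fold change -0.81 ± 0.29 SE, adjusted p = 0.314). It was -0.36 without *Morc2a* Δ/Δn 1 and -1.46 without *Morc2a* Δ/Δn 2, and the adjusted p was 0.0472 with no filter on low counts and 0.09 with DESeq2. *Rplp2* was at 67.1 ± 15.3 CPM in controls and 57.7 ± 12.4 in *Morc2a* Δ/Δn nuclei (adjusted p = 0.793).

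*Rpl15*, a large-subunit protein that is also a Diamond-Blackfan anemia gene, was at 22.1, 30.4, 24.4, 27.6 and 16.3 CPM in controls and at 14.6 and 14.7 CPM in *Morc2a* Δ/Δn nuclei (log2 fold change -0.73 ± 0.30 SE, adjusted p = 0.389). Both libraries lay just below control 5. *Rpl4* was at 219.5 ± 21.5 CPM in controls and at 192 and 155 CPM in the knockout (log2 fold change -0.34, adjusted p = 0.393). It was -0.50 without *Morc2a* Δ/Δn 1 and -0.20 without *Morc2a* Δ/Δn 2.

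*Rpl28*, a large-subunit protein, had the smallest p on the higher side. It was at 11.4, 10.9, 8.05, 13.7 and 13.7 CPM in controls, 9.42, 5.12 and 8.69 CPM in *Mphosph8* Δ/Δn nuclei and 23.6 and 16.0 CPM in *Morc2a* Δ/Δn nuclei (log2 fold change 0.78 ± 0.33 SE, adjusted p = 0.399). Both *Morc2a* Δ/Δn libraries were above the 8 others, and the nearest libraries were those of the controls from the same floxed line. The value was 0.48 without *Morc2a* Δ/Δn 1, 1.03 without *Morc2a* Δ/Δn 2 and 0.54 when only same-line controls were used. *Rpl12* (log2 fold change 0.36, adjusted p = 0.516), *Rps18* (0.31, adjusted p = 0.564) and *Rpl10a* were next on that side.

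The 2 *Morc2a* Δ/Δn libraries did not overlap the controls for 6 members with higher values (*Rpl28*, *Rpl31*, *Rpl36*, *Rps13*, *Rps16*, *Rps18*; 7.59% of all genes) and for 6 with lower values (*Rpl15*, *Rpl4*, *Rpl6*, *Rplp0*, *Rplp1*, *Rps3*; 7.8% of all genes). Of the 40 tested members with at least 50% of windows unique, a cut chosen after seeing the data, 9 were above 0, with a median log2 fold change of -0.18. The comparisons of both knockouts use the same 5 controls, so their values are not independent of each other.

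**Figure D4:**
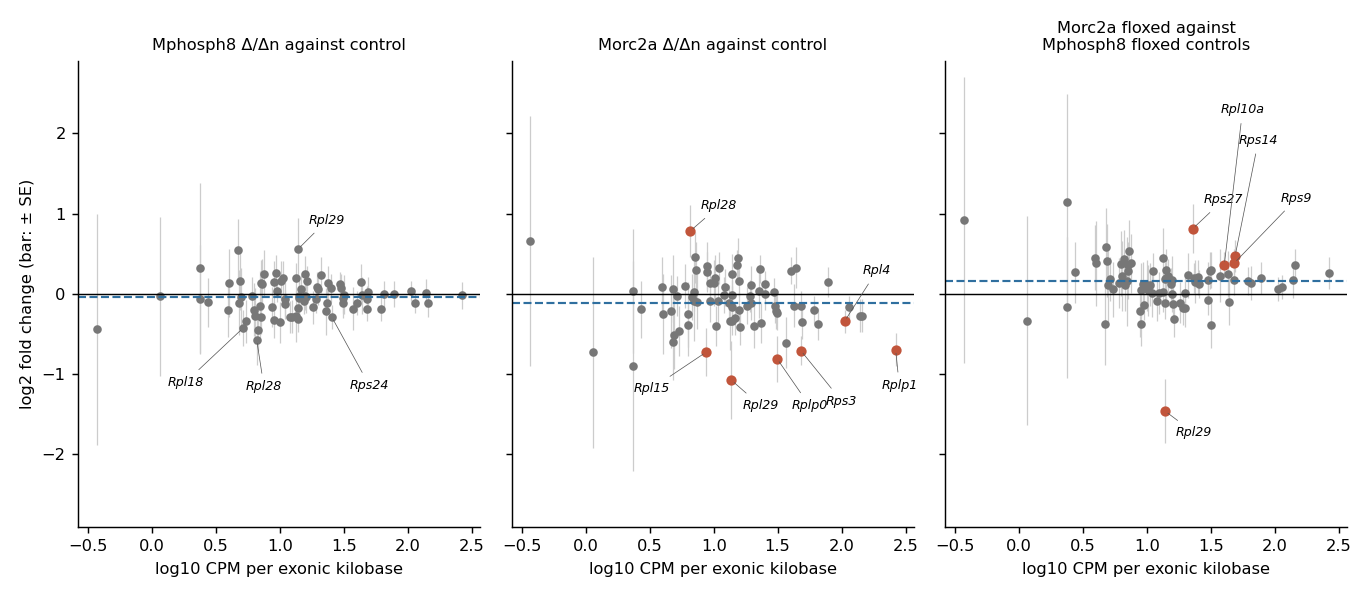
Log2 fold change ± SE of 78 of the 79 tested members against their level in CPM per kilobase (log axis) for both knockouts and for the floxed line of the controls, with red for an unadjusted p under 0.05 and a dashed line at the median of all 79. No member is red for *Mphosph8* Δ/Δn, 7 of those drawn are for *Morc2a* Δ/Δn, and the medians are -0.04, -0.12 and 0.16.

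Members with well-known separate roles gave no call. *Rps6*, the target of S6 kinase, was at 8.35 ± 2.65 CPM in controls, 8.10 ± 2.43 for *Mphosph8* Δ/Δn and 5.86 ± 1.65 for *Morc2a* Δ/Δn (adjusted p = 0.999 and adjusted p = 0.739). *Rps19*, the gene most often mutated in Diamond-Blackfan anemia, was at 70.1 ± 12.2, 73.0 ± 7.63 and 56.8 ± 15.2 CPM (adjusted p = 0.998 and adjusted p = 0.646). *Rpl38*, needed for translation of Hox mRNAs in the mouse embryo, was at 22.3 ± 5.52, 19.6 ± 4.92 and 14.6 ± 4.91 CPM (adjusted p = 0.997 and adjusted p = 0.517). *Rpsa*, also known as the laminin receptor, was at 9.06 ± 1.67, 8.43 ± 1.08 and 7.92 ± 0.541 CPM (adjusted p = 0.998 and adjusted p = 0.907), and *Rpl41* at 139 ± 12.6, 128 ± 7.17 and 123 ± 6.21 CPM (adjusted p = 0.997 and adjusted p = 0.733).

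Between the controls of the 2 floxed lines most members were higher in the Morc2afl/fl line, and 1 member, *Rpl29*, was far lower. The summed CPM was 3957 ± 15.8 (SD, n = 2) in Morc2afl/fl and 3589 ± 442 (n = 3) in Mphosph8fl/fl controls, a log2 ratio of 0.14. With 1 library left out this ratio ran from 0.09 to 0.25. Control 2, at 4099 CPM, was above both Morc2afl/fl controls. The median log2 fold change was 0.16 with 61 of 79 members above 0, beside -0.00 and 49.6% for all genes. It ran from 0.25 without control 2 to 0.09 without control 3. Other lists moved with the line too, and their part in the members' values was not tested. Above 0 were 65 of 80 oxidative phosphorylation genes (median 0.23) and 19 of 19 mitochondrially encoded RNAs (median 0.99). The 5 cerebellar granule markers were also above 0, but of the controls only control 4 was high in them (455 CPM summed). Control 5 of the same line was at 34.3 CPM, below the Mphosph8fl/fl controls at 37.2 to 48.4 CPM. For the members the median was 0.20 for the 40S members, of which 28 of 31 were above 0, and 0.12 for the 60S members, of which 33 of 48 were. With edgeR 0 members were called (0.129% of all genes), limma-voom called 0 and DESeq2 called 1. At an unadjusted p of 0.05 there were 4 higher (4.26% of all genes) and 1 lower (4.95%). The 4 became 0 without control 5, 1 without control 3, 2 without control 1 or control 4 and 6 without control 2. Differences between lines cannot be told apart from differences between litters or days of preparation, which the labels do not give. According to the paper the floxed alleles came from different ES cells before breeding on a common background. The part of that origin in these values was not tested.

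*Rpl29* encodes a basic protein at the surface of the large subunit and lies at chr9:106429454-106431568. It was at 19.8, 20.1 and 20.1 CPM in the Mphosph8fl/fl controls and at 20.9, 23.5 and 21.6 CPM in the *Mphosph8* Δ/Δn libraries of the same line. It was at 4.35 and 10.4 CPM in the Morc2afl/fl controls and at 4.69 and 9.50 CPM in the *Morc2a* Δ/Δn libraries. Every library of the Morc2afl/fl line was therefore below every library of the Mphosph8fl/fl line, whatever its Cre status. The log2 fold change between the control lines was -1.46 ± 0.40 SE (95% interval -2.30 to -0.62, adjusted p = 0.205). DESeq2 gave an adjusted p of 0.043 and edgeR with no filter on low counts 0.0395, each a call. The value was -0.94 without control 4, -2.19 without control 5 and -0.77 with the replicate block (adjusted p = 0.701).

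For *Rpl29* the choice of controls decided the value of the knockout comparison. Against all 5 controls the log2 fold change of *Morc2a* Δ/Δn was -1.08 (adjusted p = 0.437), and against the 2 controls of its own line it was -0.03. For *Rpl29*, 33.2% of windows were unique, and the gene that shared most of the others was *Uimc1*, which lay between 49.0 and 90.7 CPM. *Rpl29-ps2* and *Rpl29-ps5* had 0 to 4 counts in a library, and the part of read placement in the line difference was not tested.

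Of the 4 members higher in the Morc2afl/fl controls at an unadjusted p of 0.05, 3 encode small-subunit proteins and 1 a protein of the large subunit. *Rps27*, a zinc-finger protein whose counts can hold reads of *Rps27rt*, was at 30.2 and 36.1 CPM in Morc2afl/fl controls and at 26.2, 12.7 and 17.9 CPM in Mphosph8fl/fl controls (log2 fold change 0.81 ± 0.30 SE, adjusted p = 0.406). *Rps14* was at 138 and 153 CPM and at 91.9, 131 and 91.9 CPM (0.47, adjusted p = 0.457). *Rps9* was at 148 and 142 CPM and at 103, 135 and 95.8 CPM (0.38, adjusted p = 0.53). For all 3 the lines did not overlap among the controls, but they overlapped once the knockout libraries were counted in.

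*Rpl10a*, whose tagged form is used to purify ribosomes from chosen cells, kept the line difference in all libraries. It was at 108 to 122 CPM in the 4 Morc2afl/fl libraries and at 75.9 to 97.1 CPM in the 6 Mphosph8fl/fl libraries (between the control lines 0.36, adjusted p = 0.499). *Rpl28* lay at 13.7 to 23.6 CPM and 5.12 to 11.4 CPM, *Rpl35a* at 42.2 to 52.1 CPM and 30.4 to 38.6 CPM, and *Rps18* at 59.3 to 75.6 CPM and 46.4 to 54.4 CPM. Over all 10 libraries the lines did not overlap for these 4 members with higher values (2.05% of all genes) and for *Rpl29* with lower values (1.94%). Among the controls alone there were 16 with higher values (14.1% of all genes) and 3 with lower values, *Rpl29*, *Rps13* and *Rps15a* (15.1%). *Rpl3* (-0.31, adjusted p = 0.731) and *Rplp0* (-0.38) were also among the 4 members with the smallest p on the lower side.

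**Figure D5:**
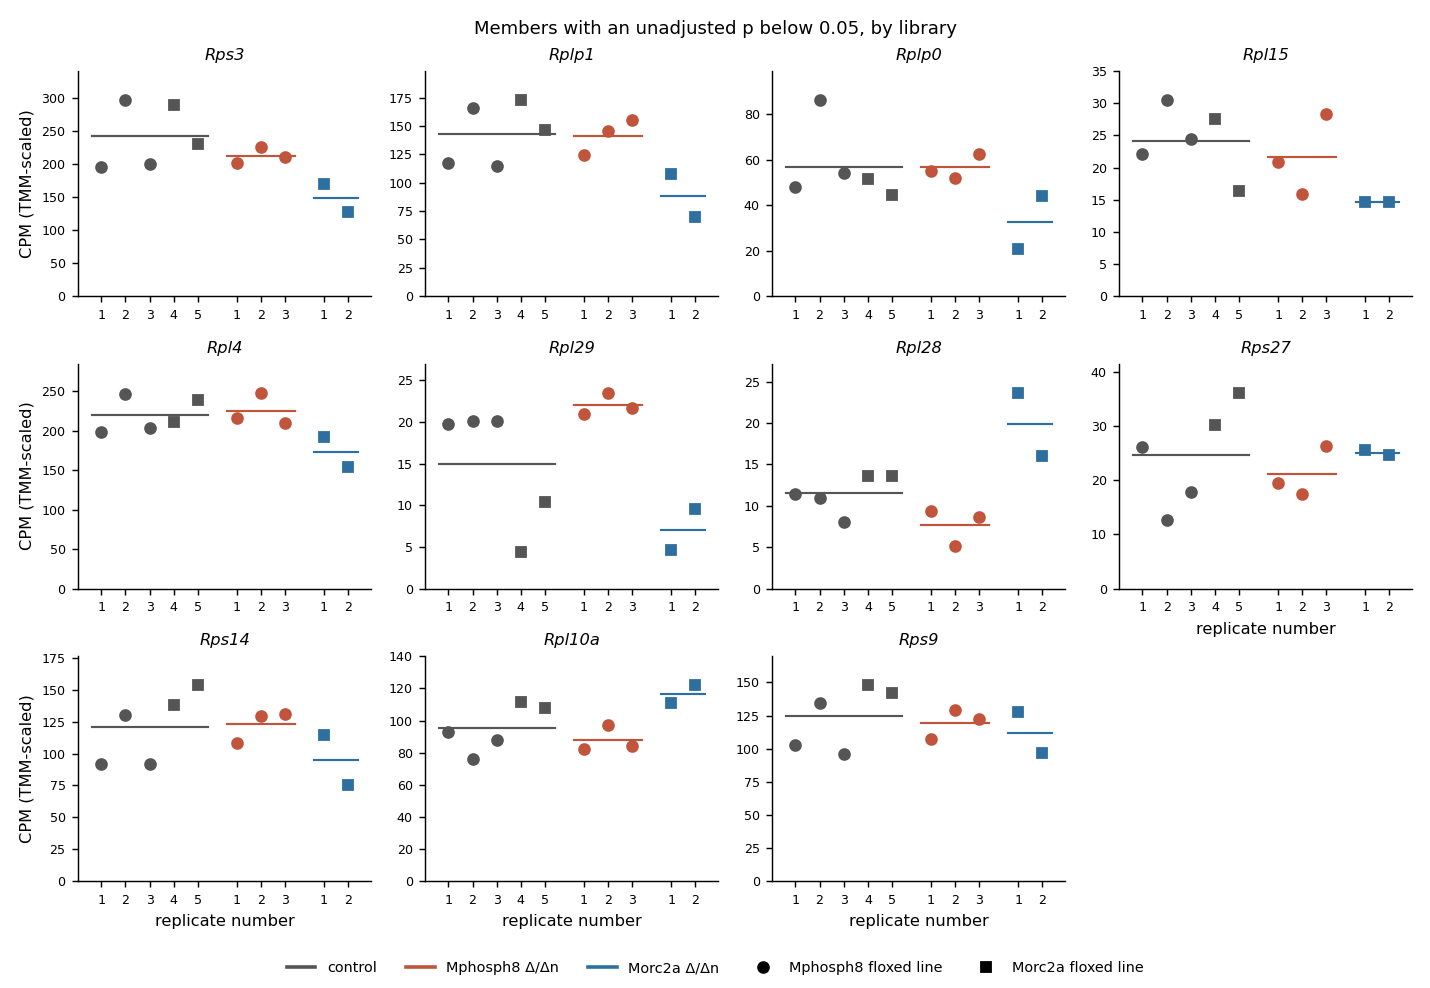
CPM of 11 ribosomal protein genes in each library (vertical axes start at 0), with circles for the Mphosph8fl/fl line, squares for the Morc2afl/fl line and bars for group means. *Rpl29* is at 4.35 to 10.4 CPM in the 4 libraries of the Morc2afl/fl line and at 19.8 to 23.5 CPM in the 6 of the Mphosph8fl/fl line.

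When each knockout was set against the controls of its own line, no member had effects that differed between the knockouts at an adjusted p of 0.05 (smallest 0.417, *Rplp1*). With edgeR 0 members and 0 genes in all were called, and limma-voom and DESeq2 called 0 members. At an unadjusted p of 0.05 there were 5 members, 1 higher and 4 lower (7.95% of all genes). The 4 lower became 15 without *Morc2a* Δ/Δn 1 and 13 without control 2. *Rplp1* had a difference of -0.94 ± 0.29 SE on the log2 scale (*Morc2a* effect minus *Mphosph8* effect, adjusted p = 0.417), *Rps14* -0.85 (adjusted p = 0.466), *Rps3* -0.69 (adjusted p = 0.521) and *Rps26* -0.87 (adjusted p = 0.603). The value of *Rps26* was -1.48 without *Morc2a* Δ/Δn 1 and -0.44 without *Morc2a* Δ/Δn 2, and its unadjusted p stayed under 0.05 in 7 of 17 alternatives. *Rps13* went the other way, at 0.98 (adjusted p = 0.525). The controls enter the difference between the knockouts' effects and the comparison of the control lines with opposite signs, so these values are not independent. The median difference over the members was -0.17, beside -0.00 for all genes, and the own-line medians were 0.02 for *Mphosph8* Δ/Δn and -0.17 for *Morc2a* Δ/Δn. Its size depended on the members and libraries, at -0.39 for the 42 members that share no exonic bases with another gene, -0.41 for the 40 with at least 50% of their windows unique, -0.29 without *Morc2a* Δ/Δn 1 and -0.26 without *Mphosph8* Δ/Δn 1. The cut at 50% of windows was chosen after seeing the data.

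The ribosomal protein or paralog genes looked up outside the naming rule gave no call. *Rps27a*, the fusion of ubiquitin to a small-subunit protein, was at 12.1 to 28.8 CPM (*Morc2a* Δ/Δn -0.25, adjusted p = 0.847). *Fau* was at 10.3 to 16.8 CPM (-0.17) and *Rps3a1* at 9.30 to 21 CPM (-0.45, adjusted p = 0.642). *Rpl7l1* had -0.33 and *Rpl22l1* -0.07. *Rack1*, a scaffold protein on the small subunit, lay between 262 and 366 CPM (0.20, adjusted p = 0.608).

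Genes that work with the ribosome were described by lists. Of 16 other TOP mRNA genes, 0 were called in either knockout. At an unadjusted p of 0.05 in *Morc2a* Δ/Δn nuclei 3 were lower (6.4% of all genes) and 1 higher (4.32%). The elongation factor gene *Eef1a1* was at 227, 311, 231, 229 and 207 CPM in controls, 213, 214 and 214 CPM for *Mphosph8* Δ/Δn, and 189 and 136 CPM for *Morc2a* Δ/Δn (-0.57 ± 0.17 SE, adjusted p = 0.22). *Hnrnpa1*, also with a TOP motif, was at 31.5 and 44.1 CPM in *Morc2a* Δ/Δn nuclei against 19.2 to 24.9 CPM in controls (0.81, adjusted p = 0.27). In *Mphosph8* Δ/Δn nuclei *Tpt1* had an unadjusted p of 0.0375 (-0.51).

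Among 29 initiation factor genes 5 were lower (6.4% of all genes) and 1 higher (4.32%) at an unadjusted p of 0.05 in *Morc2a* Δ/Δn nuclei. Their median log2 fold change was -0.21. *Eif3h*, a subunit of eIF3, was at 68.4, 79.1, 66.3, 88.6 and 88.1 CPM in controls and at 48.7 and 40.2 CPM in *Morc2a* Δ/Δn nuclei, below every control (-0.81 ± 0.19 SE, adjusted p = 0.123). *Eif1*, for start codon selection, had -0.47 (adjusted p = 0.245). In *Mphosph8* Δ/Δn nuclei *Eif3h* (-0.34, adjusted p = 0.876) and *Eif2s1* (-0.57, adjusted p = 0.866) were the 2 lower at that p (3.09% of all genes).

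The lists of genes for making ribosomes had medians above 0 in *Morc2a* Δ/Δn nuclei, and of 0.01, -0.01 and -0.01 for biogenesis, RNA polymerase I and snoRNA hosts in *Mphosph8* Δ/Δn nuclei. Of 32 biogenesis genes 1 was lower at an unadjusted p of 0.05 in *Morc2a* Δ/Δn nuclei (6.4% of all genes), *Nip7* (-0.73, adjusted p = 0.323), and the median was 0.02. Between the control lines 25 of the 32 were above 0 in the Morc2afl/fl line, with a median of 0.19. In the difference between the own-line effects 11 were above 0 and 21 below, with a median of -0.16. Of 14 RNA polymerase I genes 2 were higher at that p (4.32% of all genes), *Taf1b* (0.46, adjusted p = 0.312) and *Polr1a* (0.33, adjusted p = 0.373), with a median of 0.25. Their median was -0.01 between the control lines and 0.08 for the difference between the own-line effects. Of 10 noncoding snoRNA host genes, which are TOP transcripts, 9 were above 0, with a median of 0.31. *Snhg5* (0.42, adjusted p = 0.312) and *Snhg1* (0.43, adjusted p = 0.442) were higher at the same unadjusted threshold (4.32% of all genes). Between the control lines 8 of these 10 were also above 0 in the Morc2afl/fl line, with a median of 0.21, and their median difference between the own-line effects was -0.01. Of 22 tested genes in the control of TOP translation, *Tial1* (0.35) was 1 of 2 higher at that threshold (4.32% of all genes) and *Cnbp* (-0.34) the 1 lower (6.4%). The kinase gene *Mtor* (-0.04) and *Larp1* (0.13) were among the others.

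Other lists of highly expressed genes were read in *Morc2a* Δ/Δn nuclei in the same way. Over all genes tested, 6.4% were lower and 4.32% higher at an unadjusted p of 0.05. Of 80 tested oxidative phosphorylation genes 22 were lower and 1 higher at that p. Of these 80, 8 were above 0, with a median log2 fold change of -0.30. *Ndufa4* was at 161, 229, 191, 239 and 227 CPM in controls and at 148 and 87.0 CPM in *Morc2a* Δ/Δn nuclei (-0.84 ± 0.20 SE, adjusted p = 0.123). Of 15 cytoskeleton and calmodulin genes 11 were lower, with a median of -0.52, led by *Stmn3* (-0.58, adjusted p = 0.129). Of 36 proteasome subunit genes 4 were lower (median -0.23), and of 77 mitochondrial ribosomal protein genes 4 (median -0.03). None of these genes was called, and the lists were not tested against each other. In bulk nuclei fewer cells of a type and less RNA per cell cannot be told apart.

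Some markers of neurons and of other brain cells, and nuclear-retained RNAs, also moved with the *Morc2a* Δ/Δn libraries, and their part in the lower values there was not tested. The 4 excitatory neuron markers, led by *Slc17a6*, summed to 175, 185, 186, 152 and 160.3 CPM in controls, 179, 194 and 192 CPM for *Mphosph8* Δ/Δn, and 112 and 112 CPM for *Morc2a* Δ/Δn. All 4 were below 0 in that comparison, with a median log2 fold change of -0.55. They were also all below 0 between the control lines, with a median of -0.22. In the difference between the knockouts' own-line effects 2 were above 0 and 2 below, with a median of -0.33. The 6 neuron markers had their lowest sums, 3927 and 3331 CPM, in the *Morc2a* Δ/Δn libraries against 4204 to 4872 CPM in the other 8 (median -0.38). Their members were divided, with *Snap25* at -0.47, *Syt1* at -0.49 and *Tubb3* at -0.60 lower at an unadjusted p of 0.05, *Map2* at 0.33 higher, *Stmn2* at -0.28 and *Rbfox3* at 0.19. The 3 inhibitory neuron markers had a median of -0.24, but they moved with the line, with all 3 below 0 between the control lines (median -0.37) and a median of -0.01 for the difference between the knockouts' own-line effects. The oligodendrocyte sums, 672 and 545 CPM, were below those of the other 8 libraries (711 to 967 CPM). Of these 6 markers 2 were lower at that p (6.4% of all genes). The markers were divided, with 4 below 0 and 2 above, and a median of -0.14. Of the astrocyte markers 5 of 6 were below 0 (median -0.11), but *Morc2a* Δ/Δn 1, at 424 CPM summed, lay within the controls at 423 to 579 CPM. Of the choroid plexus markers 3 of 3 were below 0 (median -0.91), and 3 of 3 were also below 0 for *Mphosph8* Δ/Δn (median -0.70). Of the 10 nuclear-retained RNAs 9 were above 0, with a median of 0.19, and their sums were 24199 and 28814 CPM against 20147 to 26287 CPM in controls.

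Libraries also differed in markers of cell types that a dissection or sort can bring in. The sum of 5 cerebellar granule neuron markers, led by *Cbln1*, was 455 CPM in control 4, 239 and 389.8 CPM in *Mphosph8* Δ/Δn 1 and 2, and 27.5 to 69.1 CPM in the other 7 libraries. The sum of 4 pituitary markers, led by *Pomc*, was 295 CPM in *Mphosph8* Δ/Δn 2 and 2.53 to 22.4 CPM elsewhere. Without the 3 libraries high in granule neuron markers the medians were 0.03 for *Mphosph8* Δ/Δn, -0.14 for *Morc2a* Δ/Δn and 0.16 for the line. That fit keeps only *Mphosph8* Δ/Δn 3 of its group and only control 5 of the Morc2afl/fl controls. A single library gives no spread of its own, so calls from that fit decide nothing.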

How the data were processed

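The authors trimmed single 50-base reads with Trim Galore 0.5.0, removed ribosomal, mitochondrial and adapter reads with Bowtie2 2.3.4.1, aligned the rest to GRCm38 with STAR and counted them per gene with featureCounts (Subread 1.6.2). They deposited 1 table of raw counts per library. Settings for strand and for reads matching several places are not given in the sources used here. Counts of members with near-identical copies are therefore uncertain. Counts were joined to GENCODE M21 by Ensembl identifier. With edgeR 4.0.16 (R 4.3.3), TMM scaling, filterByExpr and the quasi-likelihood test were applied to all genes of 10 libraries, with 3 groups for the knockouts and 4 where controls were split by floxed line. A call needed a Benjamini-Hochberg adjusted p under 0.05 over 18573 genes and a fold above 2. The code was tested on simulated data. DESeq2 1.42.0 and limma-voom (limma 3.58.1), other filters, scalings, controls and left-out libraries were alternatives. The members and gene lists were chosen with earlier results of these data known. Named genes were the 6 highest and 6 lowest per kilobase, the 4 smallest p-values per direction and comparison, members of textbook role, paralog pairs and untested members, and others were chosen after their values were seen. Some genes that meet this rule are not reported here.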

Additional observations from a re-analysis of the deposited data

Results flagged for a closer look

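Among the 5 controls, 60 values were examined for 1 library standing far from the others, by the gap to its neighbor over the whole range (above 0.71 for 5 libraries). Chance alone flags about 1 in 20, and 5 stood apart. *Rplp0* was at 86.1 CPM in control 2, where the other controls were at 44.6 to 54.0 CPM. *Rpl7* was at 65.5 CPM in control 2. *Rpl5* was at 39.5 CPM in control 5, with the other 4 controls at 24.3 to 28.2 CPM. *Rpl39l* was at 0.198 CPM (2 counts) in control 4 and at 0 in the other controls. With the others at 0, any count in control 4 would be flagged, so the rate of 1 in 20 does not apply to it. The cerebellar granule neuron markers summed to 455 CPM in control 4 and to 34.3 to 48.4 CPM in the other controls.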

How the results depend on the processing

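Over all alternatives run, 0 members were called in either knockout and in the difference between the knockouts' effects. Between the control lines 1 member (*Rpl29*) was called with DESeq2 and with all genes of at least 1 count. Over all genes, calls for *Mphosph8* Δ/Δn, *Morc2a* Δ/Δn, the line and the difference numbered 18, 11, 24 and 0 with edgeR, 43, 51, 95 and 45 with DESeq2, and 87, 98, 154 and 85 with edgeR and no filter on low counts. Leaving out 1 library at a time, the median log2 fold change of the members ran from -0.09 to 0.02 for *Mphosph8* Δ/Δn, from -0.25 to -0.021 for *Morc2a* Δ/Δn, from 0.09 to 0.25 for the line and from -0.29 to -0.15 for the difference between the knockouts' effects. That difference was -0.39 without members that share exonic bases with another gene and -0.41 for members with at least 50% of their windows unique, which rests on fewer members. The cut at 50% was chosen after seeing the data. Deviations from the group mean in same-numbered libraries of different groups had r from -0.0277 to 0.0546 over 7 pairs, and from -0.0595 to 0.0411 over 24 other pairs. Some same-numbered pairs join different floxed lines, and the deviations of the 2 *Morc2a* Δ/Δn libraries mirror each other by construction. These coefficients therefore cannot decide whether libraries are paired. The paper describes the animals as littermates, and the labels do not name the litters. With the replicate block 0 members were called, and the medians were 0.02, -0.07, 0.15 and -0.22. With 2 *Morc2a* Δ/Δn libraries and 2 Morc2afl/fl controls, leaving 1 out assumes that the other varies like the rest. The same holds for the fit without the 3 libraries high in granule neuron markers. The 95% interval of the *Morc2a* Δ/Δn fold change lay within 2-fold for 57 of the 79 members and does not exclude a change of that size for the others.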
